A study of Drosophila melanogaster with 3 samples.

Results

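The peaks described here are the 497 reproducible binding regions of CG10431 that lie on the X chromosome of Drosophila melanogaster, out of 3314 in the whole genome. They were chosen only by the chromosome name of the entry in the authors' list of peaks that passed the irreproducible discovery rate (IDR) procedure, which keeps regions that replicate experiments rank alike. CG10431 was assayed as a transcription factor by chromatin immunoprecipitation and sequencing (ChIP-seq) in whole embryos aged 0 to 12 h, with males and females pooled. All embryos came from 1 transgenic line that carries CG10431 fused at its C terminus to green fluorescent protein (GFP), and chromatin was sonicated to 200 to 800 bp. The data are 3 biological replicates of this 1 group, and no second condition was available. A free-text field names an input control, but the assay name, the antibody field and the file notes name a ChIP, and the samples were taken as ChIP.

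Each replicate has a list of 30000 candidate entries, and a list of the same length was called by the authors on the replicates pooled. The X holds 5284 of the pooled candidates, and 9.41% of these are IDR peaks, against 11.4% of the 24715 autosomal candidates. The X held 5002, 5145 and 5271 candidates in replicates 1, 2 and 3. The authors deposited a signal for each entry, on a scale that the sources do not state, so signals were compared only within a list. Read depth is unknown. Intervals in brackets are exact (Clopper-Pearson) 95% binomial limits, for the counting error of peaks alone. For a replicate, its 3314 strongest entries stood for its peaks. Differences between the X and the autosomes were tested over the 3 replicates by an exact two-sided sign-flip permutation test, whose smallest possible p is 0.25, so no difference could pass 0.05, and these p-values measure only the spread between these samples.

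Proteins with zinc fingers that bind DNA form a large family in flies, and many of their members have no described target genes. The X chromosome is particular in this animal because males carry a single copy and females a pair. In males the MSL complex, with the noncoding RNAs roX1 and roX2, coats the X and raises its transcription, and Sxl, a gene on the X, reads the number of X chromosomes early in the embryo. The X is also known for long genes, for simple sequence repeats and for a gene-poor proximal end that grades into heterochromatin. In a pool of both sexes, X DNA is less abundant than autosomal DNA (0.75 of it if the sexes are equal in number), and the effect of this on the peak lists is given beside the results it can touch.

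The sequences of 7 X peaks are shown to let the 7-letter word TACATGG be seen where it falls. The first 4 are among the 5 strongest X peaks with this word in a window, 50 bp to each side of the summit, that meets no annotated exon. The next 2 are the intergenic X peaks with a pair of copies. The last is the strongest X peak with TATCGATA, the core of the DNA replication-related element found at many housekeeping promoters, under the same condition. All are plus-strand dm6 sequence, named by the gene with the nearest transcript start, and capitals mark the word on either strand (CCATGTA is TACATGG read on the minus strand).
Flo2: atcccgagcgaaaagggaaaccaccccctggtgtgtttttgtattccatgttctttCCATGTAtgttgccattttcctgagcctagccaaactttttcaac
br: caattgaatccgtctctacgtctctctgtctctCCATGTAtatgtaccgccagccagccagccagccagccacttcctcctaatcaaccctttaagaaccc
Pits: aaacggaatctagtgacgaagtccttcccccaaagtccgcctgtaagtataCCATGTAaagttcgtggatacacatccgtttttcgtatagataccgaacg
CG15196: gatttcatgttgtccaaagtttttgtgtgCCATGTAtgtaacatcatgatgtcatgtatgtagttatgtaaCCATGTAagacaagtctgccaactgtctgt
TfIIA-S-2: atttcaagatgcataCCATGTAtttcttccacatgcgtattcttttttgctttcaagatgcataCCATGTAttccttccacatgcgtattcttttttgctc
Frq2: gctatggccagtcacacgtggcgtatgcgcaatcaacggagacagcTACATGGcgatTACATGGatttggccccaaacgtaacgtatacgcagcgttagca
sov: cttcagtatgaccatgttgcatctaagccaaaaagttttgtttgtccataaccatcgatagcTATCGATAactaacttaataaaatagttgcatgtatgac
The window at Flo2 is X:14842164-14842264, in an intron. The window at br is X:1593502-1593602, in an intron, and that at Pits is X:12583617-12583717, upstream of the start. The window named by CG15196 is X:11404397-11404497 and lies in an intron of dlg1, with its copies 42 bp apart. The intergenic windows are X:1006301-1006401 near TfIIA-S-2, with copies 49 bp apart, and X:18175009-18175109 near Frq2, with copies 11 bp apart. The window at sov is X:6756219-6756319. CG15196, TfIIA-S-2 and Frq2 are named here for their sequence, after their values were seen.

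The strongest X peak lay in the first part of Flo2, which encodes a flotillin, a scaffold protein of membrane microdomains. Its summit was 2246 bp downstream of the nearest Flo2 start, and its signal of 8008 ranked 4th in the pooled list of the whole genome. It also ranked 4th in each replicate, with signals of 1907, 3340 and 2780 in replicates 1, 2 and 3. The second was in an intron of CG16952 (4346, rank 8), and ranked 9, 8 and 8 in the replicates. These were the 2 X entries among the 20 strongest of the pooled list. The Flo2 start itself had a separate, weaker peak 122 bp upstream (281.2, rank 1642).

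After these came wapl, the cohesin release factor, with a signal of 2179 and a summit 107 bp upstream of its start. Its signals were 521.1, 998.6 and 680.1 in replicates 1, 2 and 3, where it ranked 45, 24 and 26. Ugalt, a transporter of UDP-galactose, followed with 1923 and ranks of 20, 39 and 44. ph-p, a Polycomb group gene, had 2 of the 20 strongest X peaks, with 1642 and 1226, whose summits were 473 bp upstream of one of its starts and 415 bp downstream of another. Both ph-p peaks were found in all 3 replicates, and ranked 22, 45 and 78, and 62, 96 and 95. Tlk, the Tousled-like kinase, had an intronic peak of 1583, and CG32772 one of 1482.

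The other strong X peaks included several regulators of development. A peak of 1294 lay 2091 bp upstream of l(1)sc, a proneural gene of the achaete-scute complex, within an intron of CG32816. An intron of br, which encodes ecdysone-response zinc-finger proteins, held a peak of 1074, and Hr4, a nuclear receptor gene, one of 1069. The start of elav, which encodes an RNA-binding protein of neurons, had 1067, and the summit lay as close to the start of the noncoding RNA lncRNA:enrr. sov, which encodes a zinc-finger protein of heterochromatin silencing, had 1321 at 53 bp upstream. sdk, a cell adhesion gene, had 1224, and Gapdh2, a glycolytic enzyme gene, had 1160. Pits had 1026, CBP 1441, CG1622 1022, Rrp45, an exosome subunit gene, 958.1, and a noncoding exon near lncRNA:CR44619 1109.

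All 20 strongest X peaks were found in all 3 replicates, that is, within 250 bp of one of each replicate's 3314 strongest entries. The pooled list was made from these same replicates, so this overlap is partly built in. The lowest rank that any of the 20 had in a replicate was 258, for CG1622 in replicate 1. Of the 20, 12 had a promoter summit, within 500 bp of a transcript start, and 7 lay in introns. At the other end, the 3 weakest X peaks were a promoter peak of Hr4 (187.0), one at orion (186.8) and an intronic one in Dsp1 (186.8). The orion peak was found in none of the replicates, where it ranked 5994, 3923 and 3741.

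**Figure D1:**
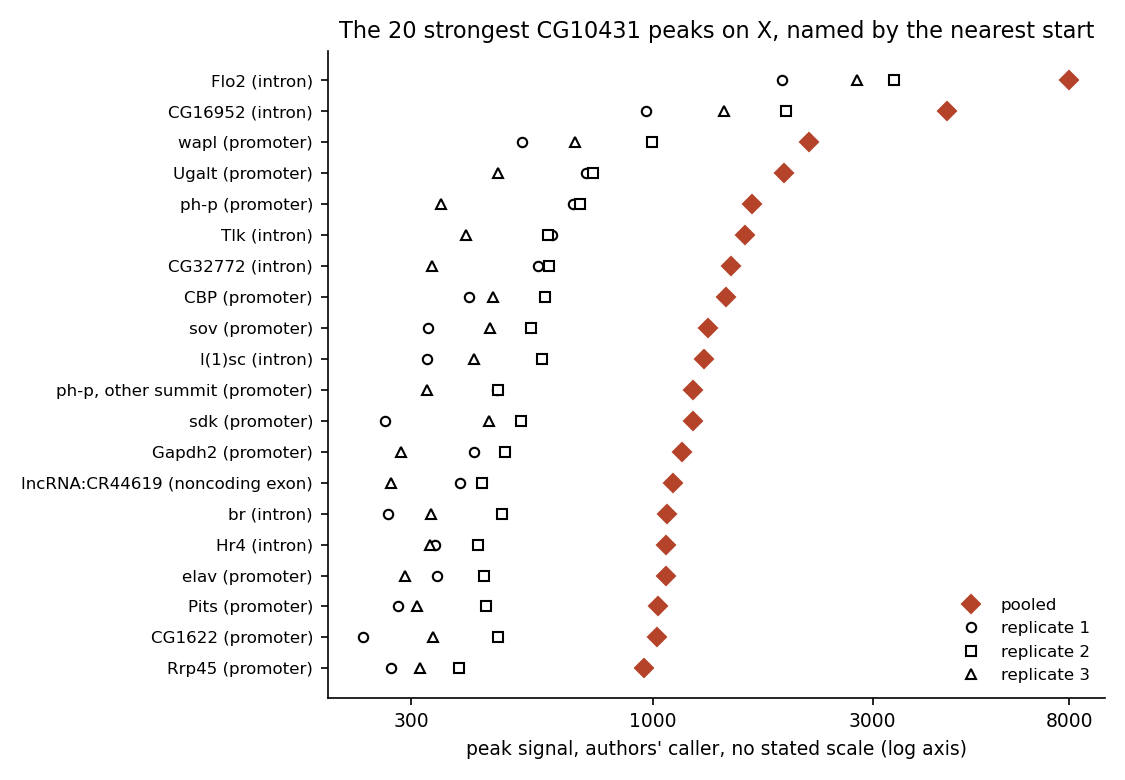
Deposited signal (log axis, no stated scale) of the 20 strongest X peaks, each named by the gene with the nearest start and its annotation class, in the pooled list (filled diamonds) and in replicates 1 to 3 (open circle, square, triangle). Flo2 and CG16952 lead in the pooled list and in every replicate; pooled and replicate signals come from separate lists and are not on one scale.

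The X had a smaller share of the IDR peaks than of the other candidates. The X held 15.0% of IDR peaks [13.8 to 16.3], against 17.9% of the other pooled candidates [17.5 to 18.4]. In the replicates the X share was 15.8, 14.5 and 14.2% among the strongest entries and 16.8, 17.5 and 18.0% among the rest. The difference was −2.60 ± 1.48 percentage points (SD, n = 3), negative in 3 of 3 replicates (exact sign-flip permutation p = 0.25). The X share showed no steady change with rank inside the IDR list, with 10% at ranks 1 to 20 (2 of 20), 15.0% at ranks 21 to 100 and 14.4% at ranks 2001 to 3314. Below the IDR list it was 16.7% at ranks 3315 to 10000, 17.8% at ranks 10001 to 20000 and 18.9% at ranks 20001 to 30000.

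**Figure D2:**
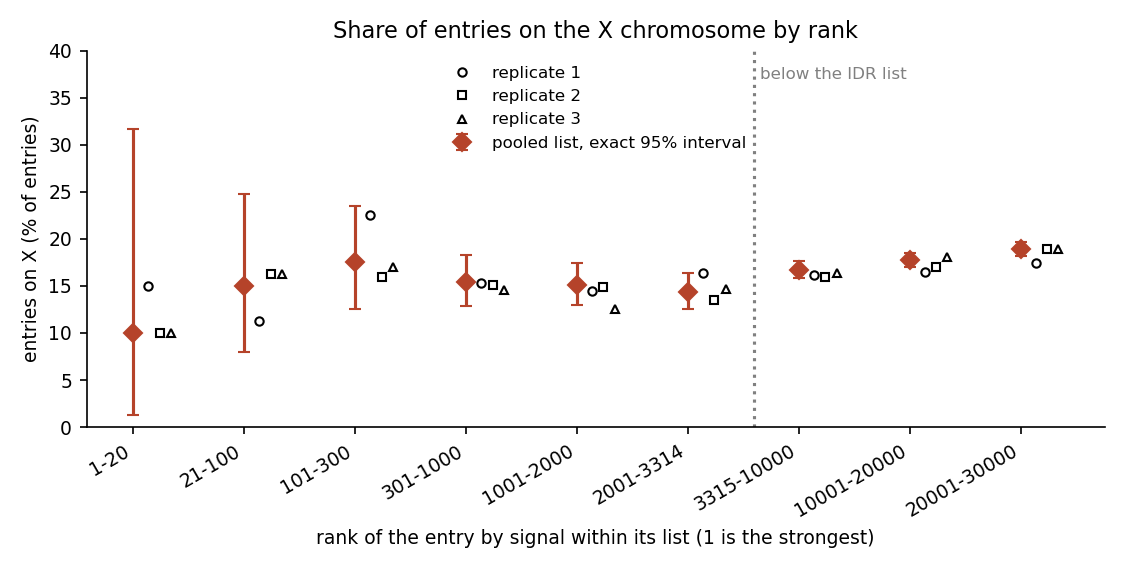
Percentage of entries on the X (vertical axis) by rank of signal within a list (horizontal axis), for the pooled list with its exact 95% interval (diamonds) and for replicates 1 to 3 (open symbols). To the left of the dotted line are the ranks of the IDR list, where the pooled share lies between 10 and 17.5%; the pooled share reaches 18.9% at the lowest ranks.

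Per length, the X held 21.1 IDR peaks per Mb, against 25.5 on the autosomes, while candidates were equally dense, at 224.4 and 224.0 per Mb. Per 1000 distinct transcript starts there were 127.2 IDR peaks on the X, against 143.2 on the autosomes. This difference turned round when X signals were multiplied by 4/3, the factor that would offset the copy number of the X with equal numbers of both sexes. The factor assumes that the authors' signal does not offset the copy number already, which the sources do not state. Then 756 of the 3314 strongest entries were on the X, and the X share was 5.84 points above that of the rest. Less X DNA in the pool and fewer sites on the X therefore cannot be told apart in these lists.

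Above the signal cut shared by both, the median signal of the peaks was alike on the X and the autosomes. The median was 281.2 on the X and 279.9 on the autosomes, and the quartiles were 223.2 and 432.5 on the X and 221.4 and 405.2 on the autosomes. The log2 ratio of the medians was 0.04, 0.02 and −0.03 in replicates 1, 2 and 3, with a mean of 0.01 ± 0.04 (SD, n = 3; exact sign-flip permutation p = 0.75). In the pooled list this ratio was 0.00666 as deposited and 0.00991 with X signals multiplied by 4/3. The X entries among the 3314 strongest rose from 497 to 756 with that factor. Medians above a shared cut thus moved little, and cannot show whether X sites had the same signal. The strongest 20% of the list took 110 of the X peaks, or 22.1% [18.6 to 26.0], against 553 or 19.6% of the autosomal peaks [18.2 to 21.1]. That difference was 0.492, 3.16 and 3.52 points in the replicates (p = 0.25 by the exact permutation test). The highest signal was 8008 on the X, against 69279 on the autosomes. Among candidates outside the IDR list, the median signal was 67.7 on the X and 70.3 on the autosomes.

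X peaks were found again in the replicates about as often as autosomal peaks. In replicates 1, 2 and 3, 84.9, 84.5 and 78.1% of the X peaks were found, against 81.7, 86.5 and 79.7% of the autosomal peaks. In all 3 replicates, 309 X peaks (62.2%) and 61.1% of autosomal peaks were found, and 5 X peaks were found in none. The mean difference was −0.158 ± 2.91 points (SD, n = 3), smaller than its spread (exact permutation p = 1). The X peaks found in all 3 replicates had a median signal of 367.9, against 200.7 for the 63 found in 1.

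**Figure D3:**
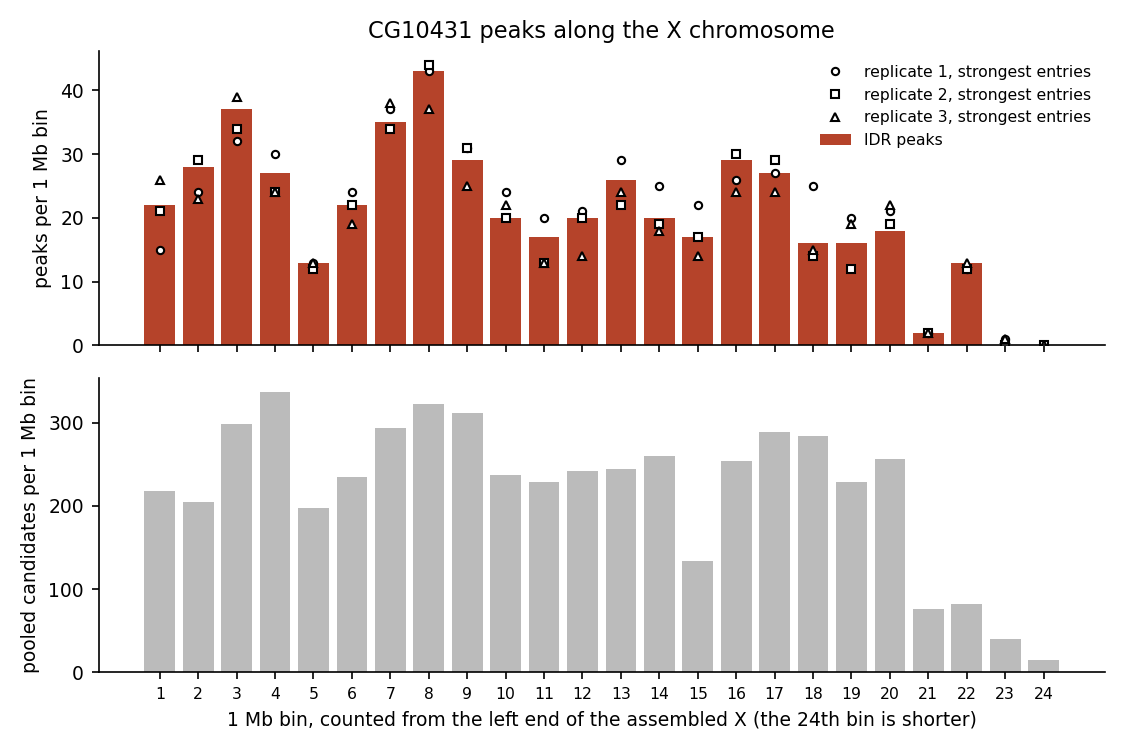
IDR peaks per 1 Mb bin of the X (bars, upper panel) with the number of each replicate's 3314 strongest entries in the bin (open symbols), and pooled candidates per bin (lower panel), with bins counted from the left end of the assembled chromosome. The 8th bin holds 43 IDR peaks, the 21st holds 2, and the last 2 bins hold none.

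Along the 23.5 Mb of the X, peaks lay throughout the first 20 Mb, and both peaks and candidates thinned out at the proximal end. The first summit was at 175790 and the last at 21629996, so the final 1912275 bp held none. Within the first 20 Mb, each bin of 1 Mb held between 13 and 43 peaks. The richest was the 8th bin with 43 peaks, where CBP was the strongest, and replicates 1, 2 and 3 had 43, 44 and 37 entries there. The 3rd bin had 37 peaks, with wapl strongest, and the 7th had 35, with sov strongest. Candidates were also unequal, from 134 to 337 per bin over the first 20 Mb, and the 8th bin had 322 of them.

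Beyond 20 Mb there were 15 peaks among 213 candidates (7.04%, [3.99 to 11.3]), against 482 among 5071 (9.51%, [8.71 to 10.3]) before it. Of these 15, 13 lay in the 22nd bin, among 82 candidates (15.9%), and bbx was the strongest there at 811.8. Beyond 22 Mb none of 55 candidates was an IDR peak, which allows a share of up to 6.49%. The widest gap between neighbouring summits was 803190 bp, from pico (207.1) to Cyp6v1 (347.3), and it held 59 candidates and 131 transcript starts. The median gap was 17632.5 bp on the X, against 12857.5 bp on the autosomes.

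Many X peaks had a close neighbour. A second summit lay within 5 kb of 229 X peaks, or 46.1% [41.6 to 50.6], against 50.7% of autosomal peaks [48.8 to 52.5]. The difference was −3.21, −3.67 and −5.82 points in the replicates (exact permutation p = 0.25), and it was 5.31 points in the opposite direction with X signals multiplied by 4/3, so the copy number of the X cannot be told apart from it. It also had the opposite sign under other settings. Joined at 5 kb, the X peaks formed 268 single summits, 61 pairs, 15 runs of 3, 8 of 4, 3 of 5, 1 of 7 and 1 of 8. The longest run, of 8 summits over 10442 bp, ran over the first part of Raf, which encodes the kinase of the Ras pathway, and reached CG2865 on its left side. Its strongest summit, in an intron of Raf, had 845.5 and ranked 115, 180 and 404 in the replicates. No summit lay within 500 bp of a Raf start, so Raf was not counted as bound. The run of 7 summits covered CHES-1-like, a forkhead gene, and lncRNA:CR43287, with 690.2 at its strongest.

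The classes of sequence at the peaks differed between the X and the autosomes, and those of the other candidates differed too, as given below. Promoter summits made up 252 of the 497 X peaks, or 50.7% [46.2 to 55.2], against 1549 of 2817, or 55.0%, of the autosomal ones [53.1 to 56.8]. Introns held 195 X peaks, or 39.2% [34.9 to 43.7], against 847 or 30.1% on the autosomes [28.4 to 31.8]. Intergenic sequence held 29 X peaks, or 5.84% [3.94 to 8.27], against 333 or 11.8% [10.7 to 13.1]. The remaining X peaks had their summits in 3′ UTR (12), noncoding exons (4), coding exons (3) and 5′ UTR (2).

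These differences had the same sign in 3 of 3 replicates. The intron share was higher on the X by 10.6, 9.95 and 6.35 points in replicates 1, 2 and 3, with means of 38.2 ± 3.54% on the X and 29.3 ± 1.30% on the autosomes (SD, n = 3). The intergenic share averaged 5.69 ± 0.392% on the X and 11.5 ± 0.845% on the autosomes (SD, n = 3), and the groups did not overlap. The promoter share averaged 51.5 ± 3.09% on the X and 56.0 ± 2.28% on the autosomes (SD, n = 3), a difference of −4.54 ± 0.860 points. Each of the 3 tests gave an exact sign-flip permutation p of 0.25, the smallest possible. Of promoter summits off the start itself, 174 of 249 on the X (69.9%) lay upstream of the nearest start, against 72.0% on the autosomes, and the replicates averaged 69.3 ± 4.65% on the X and 70.4 ± 3.65% on the autosomes (SD, n = 3), a difference of −1.09 ± 1.03 points (exact sign-flip permutation p = 0.25).

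The sequence of the chromosomes and the other candidates differed in the same direction for introns and intergenic sequence. Introns outside promoter windows make up 43.3% of the X and 38.6% of the autosomes, and intergenic sequence 22.6% of the X and 28.2% of the autosomes. Of the other candidates, 48.5% on the X and 42.2% on the autosomes were in introns. Of the same candidates, 12.5% on the X and 21.7% on the autosomes were intergenic, and 27.9% on the X and 27.6% on the autosomes were at promoters. In points, the intergenic gap was wider among these candidates than among IDR peaks, and the intron gap was narrower. Whether the peaks differ beyond these backgrounds was not tested. The 3′ UTR share of IDR peaks was 2.41% on the X and 0.887% on the autosomes, and that of other candidates 6.33% on the X and 2.80% on the autosomes.

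Promoters with starts on both strands made up a smaller share of bound promoters on the X. Of the 252 X promoter peaks, 60 or 23.8% [18.7 to 29.6] had starts of both strands within 500 bp of the summit, against 546 of 1549, or 35.2% [32.9 to 37.7], on the autosomes. The shares were 25.9, 25.3 and 23.0% on the X in replicates 1, 2 and 3, and 38.0, 36.0 and 34.5% on the autosomes. No replicate's X share reached any autosomal share, and the difference was −11.5 ± 0.732 points (SD, n = 3; exact sign-flip permutation p = 0.25). Among promoter candidates outside the IDR list the shares were 21.1% on the X and 20.02% on the autosomes. The median signal was 248.7 at both-strand X promoters, against 285.6 at both-strand autosomal promoters. At promoters with starts on a single strand it was 307.6 on the X, against 281.1 on the autosomes. This comparison was chosen after the data had been seen.

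**Figure D4:**
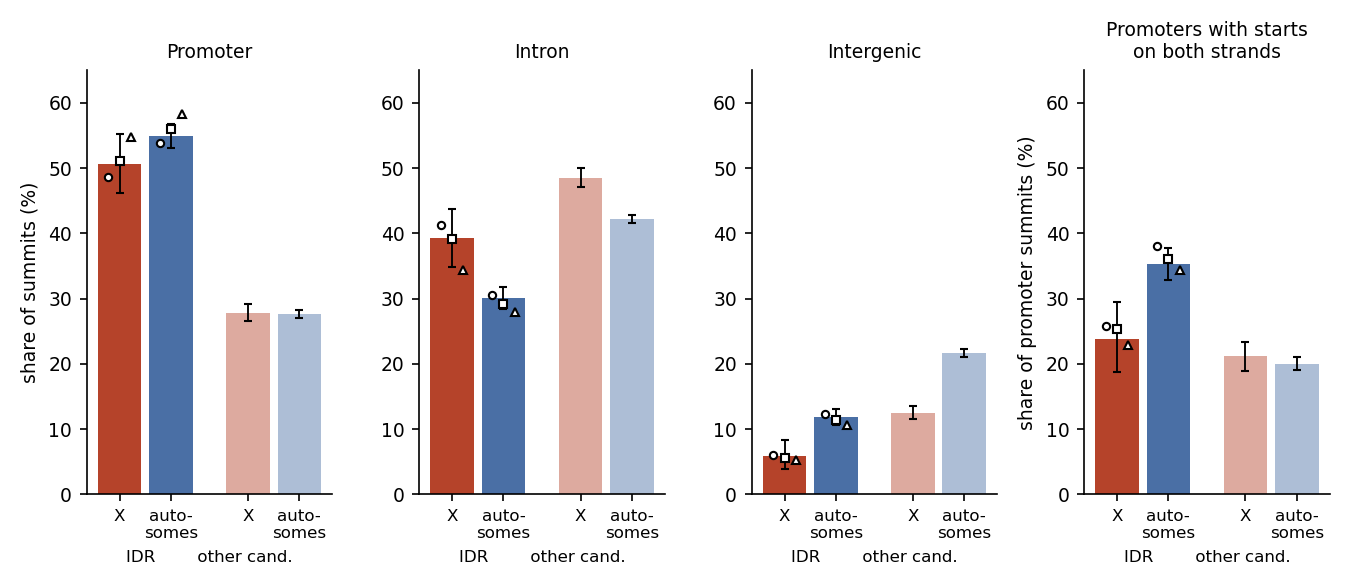
Share of summits (%) at promoters, in introns and in intergenic sequence, and share of promoter summits with starts on both strands, for the X (red) and the autosomes (blue), in IDR peaks (full colour) and in the other pooled candidates (pale). Bars carry exact 95% intervals, and open circles, squares and triangles are the 3314 strongest entries of replicates 1, 2 and 3; the X is higher for introns and lower for intergenic sequence in every replicate.

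The genes that held intronic X peaks were long. The 195 intronic summits lay in 129 genes, of which 93 held a single summit and 12 held at least 3. The median length of these genes, noncoding ones included, was 23.5 kb, against 2.52 kb for all protein-coding genes on the X. Longer genes hold more intron sequence, so any intronic position tends to fall in them. The hosts of other intronic candidates were not measured. A summit was counted for every gene whose span covered it. CG1677, which spans 124.7 kb, held 12 intronic summits, all of which also fell within the overlapping lncRNA:CR44357. Dok, CBP and Atg5 lie inside the CG1677 span, and 1 of its summits fell in each of them. Hr4 held 10 over 66.0 kb, from 188.5 to 1069, Raf held 8, CHES-1-like 7 and Mnt, which encodes a partner of Max, 6. Among the rest, Tlk and Pits held 4 each, and the axon guidance gene NetA held 4 with signals up to 307.7. CG1677, CHES-1-like, Mnt and NetA were named after their values were seen.

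Fewer genes with a candidate at their start were bound on the X. A gene counted as bound if any of its starts had an IDR summit at most 500 bp away. This held for 299 of 1310 X genes with a candidate summit there, or 22.8% [20.6 to 25.2], against 1986 of 6419 autosomal genes, or 30.9% [29.8 to 32.1]. The shares in replicates 1, 2 and 3 were 23.0, 22.4 and 22.5% on the X, against 29.1, 30.7 and 30.9% on the autosomes. The groups did not overlap, and the difference was −7.61 ± 1.25 points (SD, n = 3; exact sign-flip permutation p = 0.25). With X signals multiplied by 4/3 it became 5.86, so the copy number of the X and a lower share of bound X genes cannot be told apart. The gene lists below were read against the 22.8% of X genes. That count includes mature miRNAs that the annotation lists as genes of their own, and among protein-coding X genes alone 266 of 1159, or 23.0%, were bound.

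Every cytosolic ribosomal protein gene on the X was bound. All 15 had a candidate, and all 15 had an IDR peak (exact interval 78.2 to 100%), against 60 of 66 on the autosomes. RpS10b led with a signal of 923.5 and a summit at its start, and ranked 198, 158 and 121 in the replicates. RpS28b had 836.2 with a summit 31 bp upstream, and sta, which encodes a small-subunit protein, had 683.0 with a summit 48 bp downstream. The other 12 had signals from 247.2 (RpS14b) to 514.2 (RpL17). Every summit lay within 49 bp of a start of its gene, and every one of the 15 peaks was found in all 3 replicates. Of the mitochondrial ribosomal protein genes on the X, 6 had a candidate and none was bound (interval 0 to 45.9%). On the autosomes 18 of 43 were bound (41.9%), a share inside that interval, as is the 22.8% of all X genes. In replicate 3, 1 of these X genes was bound.

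**Figure D5:**
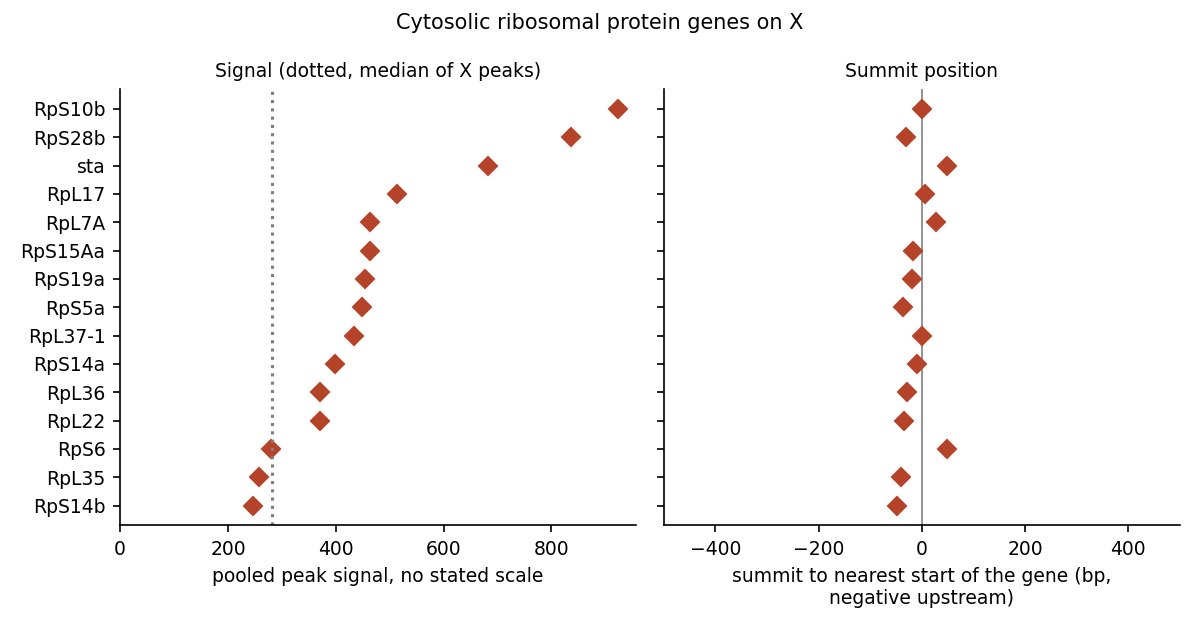
Pooled signal (left, no stated scale) and distance of the summit from the nearest start of the gene (right, bp, negative upstream) for the 15 cytosolic ribosomal protein genes on the X, ordered by signal. All 15 summits lie within 49 bp of a start, and 12 signals are above the X median of 281.2 (dotted line).

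Of genes of chromatin and transcription, 7 of 15 were bound (46.7%, [21.3 to 73.4]). They were led by ph-p (1642), by fs(1)h, a BET bromodomain gene, with 495.1, and by e(y)3, which encodes a subunit of a chromatin remodelling complex, with 283.7. The other 4 had signals between 191.2 and 241.8, and the median of the 7 was 241.8, against 283.7 over all bound X genes. Of these 7, 3 were found in all 3 replicates, 1 in 2 and 3 in 1, and the list had 6, 5 and 4 bound genes in replicates 1, 2 and 3. Of the neuronal genes, 6 of 15 were bound, led by elav (1067), the innexin gene ogre (400.0) and dnc, a cAMP phosphodiesterase gene, with 363.0. In central metabolism 3 of 10 were bound, namely Gapdh2 (1160), Fum1, a fumarase gene, with 372.9, and ras, the inosine monophosphate dehydrogenase gene, with 226.5. In the cell cycle and genome maintenance list 2 of 5 were bound, wapl (2179) and the checkpoint kinase gene mei-41 (279.1). Bound genes in replicates 1, 2 and 3 numbered 4, 5 and 7 in the neuronal list and 4, 4 and 3 in metabolism. The cell cycle list had 3, 2 and 1. Intervals were 16.3 to 67.7% for the neuronal list, 6.67 to 65.2% for metabolism and 5.27 to 85.3% for the cell cycle list. Each of these, and the interval of the chromatin list, holds the 22.8% of all X genes.

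For both lists of developmental regulators the share of all X genes also lay within the interval. Of transcription factors, 2 of 15 were bound (13.3%, [1.66 to 40.5]), namely ewg, an NRF-family gene, with 895.6, and sd, the TEAD factor of the Hippo pathway, with 415.2. Of signalling genes, 4 of 24 were bound (16.7%, [4.74 to 37.4]), while 6, 5 and 10 of the 27 list members on the X were bound in replicates 1, 2 and 3. Among these, sgg, which encodes the GSK3 kinase, reached 598.7 and was found in all 3 replicates. sdt, a polarity gene, had 218.7, the Notch receptor gene N had 194.5, and fu, a kinase gene of the Hedgehog pathway, lay between them. These last 3 were found in 2 of the 3 replicates each.

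Of the genes that count and compensate the X, 2 carried a peak at a start, and both peaks were weak. The list had 9 members on the X, and 5 had a candidate at a start. Of these 5, 2 were bound (40%), Sxl (194.1) and roX2. The interval, 5.27 to 85.3%, holds the 22.8% of all X genes. The list had 0, 1 and 1 bound genes in replicates 1, 2 and 3. The roX2 peak had a signal of 189.5, rank 3238 of 3314, with its summit 70 bp downstream of the start. It ranked 4874, 3725 and 3137 in replicates 1, 2 and 3, and was thus found in replicate 3 only. roX1, mof and run had a candidate at a start but no IDR peak there, and sc, sisA, snf and upd1 had no candidate at a start. The Sxl promoter peak ranked 3984, 2609 and 9122 and was found in replicate 2 only. An intron of Sxl held a stronger summit (434.3), near the start of lncRNA:CR46494, which was found in all 3 replicates.

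The remaining lists were short. The list of flotillin scaffold genes had Flo2 as its only X member, bound at its start, and of the chaperones both X members, Hsc70-3 (315.6) and Hsp60A (188.4), were bound. No member was bound of 1 achaete-scute gene with a candidate at its start, 2 yolk, chorion and glue genes, 2 translation factor genes, 3 odorant and gustatory receptor genes, 1 cuticle gene, 1 V-ATPase gene and 2 proteasome genes. Of noncoding genes, 19 of 107 in the class of other RNAs were bound (17.8%, [11.04 to 26.3]), with the annotation's separate entries for mature miRNAs left out. Also bound were 3 of 10 miRNA genes, led by mir-4962 (415.0), 2 of 5 snoRNA genes and 1 of 6 tRNA genes. The mir-4962 peak lay within the span of Tlk and the mir-9377 peak within that of Tis11. Whether these peaks belong to the miRNA genes or their hosts was not tested. The tRNA and snoRNA genes shared the peaks of RpL17 and RpS6, so their binding is not separate from that of these genes, and no snRNA gene had a candidate.

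The word TACATGG was in the window of 100 bp to each side of the summit of 37 X peaks, or 7.44%, against 219 autosomal peaks, or 7.77%. It was in 2.26% of the other X candidates and 2.61% of the other autosomal candidates, and in 2.54% of all windows of other candidates. In the replicates its share was 7.25, 8.13 and 8.96% on the X, against 6.85, 7.94 and 7.38% on the autosomes, so the direction differed from that of the IDR list and the X and the autosomes were not separated (exact sign-flip permutation p = 0.25, adjusted p = 0.275 over 11 motifs by Benjamini-Hochberg). Of the 37 X peaks, 33 had a copy within 50 bp of the summit, with a median distance of 21 bp, and 3 had 2 copies. X peaks with the word had a median signal of 449.9, against 277.1 for the 460 without it, and some other words showed a like contrast, given below. Of the 20 strongest X peaks 5 held it, among them Flo2 and CG16952. It was in 21 of 195 intronic X peaks, or 10.8% [6.79 to 16.0], and in 11 of 252 promoter X peaks, or 4.37% [2.20 to 7.68]. Of the intergenic X peaks, 4 of 29 held it, or 13.8% [3.89 to 31.7]. Its share among other candidates of each class was not measured.

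None of the other words, all searched on both strands, could pass the test between the X and the autosomes. TATCGATA was in 3.82% of X peaks and 3.16% of autosomal peaks, against 2.26% of other X candidates and 1.42% of other autosomal candidates, and 14 of the 19 X peaks with it were at promoters. In the replicates it was higher on the X by 1.08 ± 0.0448 points (SD, n = 3). Motif 1, a core promoter element of housekeeping genes, was in 3 X peaks (0.604%) and 47 autosomal peaks (1.67%), and its share was lower on the X in 3 of 3 replicates (difference −1.21 ± 0.672 points, SD, n = 3). Ohler motif 7 was in 4.43% of X peaks and 5.47% of autosomal peaks. GAGAGAGA, the kind of repeat that GAF and the X-enriched factor CLAMP bind, was in 4.02% of X peaks and 3.44% of autosomal peaks, against 3.70% of other X candidates and 2.43% of other autosomal candidates. CACACACA was in 6.64% of X peaks and 6.11% of autosomal peaks, while 8.73% of other X candidates and 5.42% of other autosomal candidates held it. In the replicates CACACACA was higher on the X by 1.64 ± 0.405 points (SD, n = 3). AGGNGGCGC, the CTCF core, was in 9 X peaks (1.81%) and 27 autosomal peaks (0.958%). The shares on the X and on the autosomes were 12.3 and 15.1% for TAATTA, 30.6 and 32.8% for TATAAA, 2.01 and 2.45% for CACGTG, and 0.805 and 0.958% for CAGGTAG. Of all windows of other candidates, 0.622% held Motif 1, 2.55% Ohler motif 7 and 0.742% AGGNGGCGC. The shares there were 13.7% for TAATTA, 27.3% for TATAAA, 2.48% for CACGTG and 0.948% for CAGGTAG. The adjusted p was 0.275 for every word apart from Ohler motif 7, where it was 0.5 (exact sign-flip permutation tests). Among X peaks, median signal was 438.6 with TATCGATA (19 peaks) and 279.4 without, and 424.5 with CACGTG (10 peaks) and 279.9 without. It was also higher with GAGAGAGA, CAGGTAG and TAATTA than without them. It was lower with CACACACA, Motif 1, Ohler motif 7, AGGNGGCGC and TATAAA than without them. GC content of the windows averaged 38.6% on the X and 38.4% on the autosomes. A match shows only that the letters are present, and whether CG10431 binds any of them was not tested.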

How the data were processed

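Peak lists were used as the authors deposited them, on dm6 per the labels. Which aligner and caller made them is not stated in the sources. The signal of each entry and its q-value (as −log10) are values that the authors deposited, and only the signal was used to rank or compare entries. No reads or depths were used here, and the control alignment, shared by the replicates per the file notes, was not analysed here. Tested on the files, the 3314 IDR peaks are the pooled entries with the highest signals.

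Starts and classes came from Ensembl release 115 (18358 genes without transposable elements), and sequence from the RefSeq copy of dm6; 2191 X protein-coding genes matched RefSeq by symbol, 100% with the same coordinates. Summits beyond 500 bp of a start were placed first in UTRs and exons, then in introns, and otherwise called intergenic. There were 18 gene lists and 5 classes of noncoding genes, with older symbols matched through RefSeq synonyms. Motifs were sought 100 bp to each side of a summit. The sequence of 1 X peak is not reported here. Named genes are the 20 strongest X peaks, the strongest peak of the 3 richest bins of 1 Mb and of the longest run. Up to 3 bound members per list, both sides of the widest gap and the 3 weakest X peaks are named too. Some further genes are marked in the text. All other genes were named after their values were seen. These are hosts and neighbours of peaks, ends of a range, other members of the X counting list, N and bbx. The ribosomal, chaperone, transcription factor and noncoding lists were corrected for wrong or missing members after their values were seen. The members, lists and tests were chosen with earlier results of these data known. Python 3.11.15, numpy 2.4.6, pandas 2.3.3 and scipy 1.17.1 were used, and the calculations were tested on simulated data. The alternatives were other list lengths, distances, windows and start definitions, peaks found in all replicates, joined intervals, X signals times 4/3, no chromosome 4, and each replicate left out.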

Additional observations from a re-analysis of the deposited data

How the results depend on the processing

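Of 175 alternative values over 22 results, 153 kept the direction of the reported value and 22 had the opposite one. With 3 replicates the smallest exact permutation p is 0.25, and 0.5 with 2, so no alternative could pass 0.05. The promoter, intron, intergenic, upstream, both-strand and strongest-20% differences of the IDR list kept their direction throughout, but the mean upstream difference over the replicates (−1.09) was 1.28 in the upper 50% of each list by signal and 0.0264 with a promoter window of 1000 bp. The intron difference ranged from 7.53 to 13.03 points, the intergenic one from −6.77 to −4.92 and the both-strand one from −18.9 to −6.99. X signals multiplied by 4/3 reversed the X share of peaks (5.84 points), the bound gene share (5.86) and the close neighbour share (5.31). The close neighbour share was also reversed in the upper 50% of each list by signal (3.68) and among peaks found in all 3 replicates (0.143), and ran from −0.988 to 0.305 with 1 replicate left out. The share found in a replicate was reversed in the upper 50% (0.105) and with matches within 100 bp (0.397), and ran from −1.83 to 0.765 with 1 replicate left out. The log2 ratio of median signals was −0.0185 for the 5000 strongest entries, and ran from −0.0130 to 0.0218 with 1 replicate left out. Among motif shares, windows of 50 bp to each side reversed GAGAGAGA (−0.378), CACACACA (−0.0940) and TATAAA (0.123), and windows of 150 bp to each side Ohler motif 7 (0.381) and CACGTG (0.190). With 1 replicate left out, TACATGG ran from 0.758 to 1.94 and CACGTG from −0.124 to 0.543. The causes were not tested. Every test took the X and the autosomes from the same replicate, so the tests are paired by replicate, and no further block was used. Leaving a replicate out only kept the IDR peaks found in the others.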
